A study of Mus musculus with 18 samples.

Results

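Solute carriers are the membrane proteins that move nutrients, ions, vitamins and metabolites into cells and between their compartments. The genes described here are those whose symbol is Slc or Slco followed by a digit and whose brightest single-symbol probe set averaged at least 8 on the scale log2(signal + 32) over all 18 arrays. Of 362 genes with such a name and a probe set of their own, 138 met this rule, out of 18193 named genes in the series. Among them, 134 are carriers of 43 families and 4 carry the name without being carriers: the adaptor Slc9a3r1, the pseudogene Slc2a4rg-ps, Slc4a1ap and Slc7a6os. The genes just inside the threshold were Slc46a3 at a mean of 8.05, Slc25a35 at 8.05, Slc41a3 at 8.04 and Slc25a53 at 8.0, and those just outside were Slc25a23 at 7.97, Slc25a16 at 7.96, Slc22a13 at 7.93 and Slc4a11 at 7.90. The rule used the level over all arrays, not the difference between groups. A gene that is high in only some groups can still meet it through those groups.

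The arrays held RNA of naive CD4 T cells of C57BL/6J mice, sorted from spleen and lymph nodes as CD4+, CD44-, CD62L+ and CD25- cells. Donors were wild type (WT) or STAT3-deficient, carrying a floxed Stat3 allele that Cd4-Cre, active in T cells from the thymus on, deletes. Cells of each genotype spent 3 h in medium that held no cytokine, 20 ng/ml of interleukin 6 (IL-6) or 20 ng/ml of interleukin 27 (IL-27). This gave 6 groups of 3 arrays, stated in the series to be biological triplicates.

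A resting T cell takes up little glucose or amino acid, and antigen stimulation raises carriers such as the glucose carrier Slc2a1 and the large neutral amino acid carrier Slc7a5. Zinc carriers fall into the Slc30 family, which moves zinc out of the cytosol, and the Slc39 family, which moves it in. The Slc25 family lies mostly in the inner mitochondrial membrane. IL-6 and IL-27 share the receptor chain gp130 and activate STAT3, which binds a palindromic DNA motif called GAS, while the interferon response element, ISRE, is a motif of interferon-induced genes.

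The promoters of the members with the largest rise with IL-6 are shown because the same genes lead the results below. They are the 250 bases before the start of the gene in RefSeq on GRCm38.p6, written 5′ to 3′ on the strand of the gene, with GC boxes (GGGCGG or CCGCCC) in capitals. The stretch of Slc30a4, the gene of the zinc carrier ZnT4, is chr2:122702664-122702913 on the minus strand, with 82.8% G or C and 3 GC boxes, and that of Slc49a4, the gene of a carrier of the lysosomal membrane, is chr16:35769371-35769620 on the minus strand, with 63.6% G or C and 1 GC box.
Slc30a4: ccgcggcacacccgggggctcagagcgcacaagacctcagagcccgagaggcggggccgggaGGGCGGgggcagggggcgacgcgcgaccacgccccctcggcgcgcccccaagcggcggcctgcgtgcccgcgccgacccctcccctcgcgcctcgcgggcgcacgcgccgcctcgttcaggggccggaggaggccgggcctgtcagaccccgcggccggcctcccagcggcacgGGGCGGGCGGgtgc
Slc49a4: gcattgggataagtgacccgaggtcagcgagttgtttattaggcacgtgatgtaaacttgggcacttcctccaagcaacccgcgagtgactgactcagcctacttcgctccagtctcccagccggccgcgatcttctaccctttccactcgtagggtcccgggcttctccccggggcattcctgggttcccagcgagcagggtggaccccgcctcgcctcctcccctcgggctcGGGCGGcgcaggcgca
Promoter windows were found for 103 of the 138 members, which held 140 windows of 250 bases before and 50 bases after a start. The GAS motif TTCNNNGAA, which reads the same on both strands, lay in 6.43% of these windows and in 8.3% of all 32851 windows in the table. The ISRE core (TTTC, any 2 bases, TTTC, or on the other strand GAAA, any 2 bases, GAAA) lay in 1.43% against 3.44%, and the GC box in 73.6% against 35.7%. These sets are unlike: members were chosen for their level, while the table's 27025 genes were not. The part of that choice in these shares was not tested. None of the 4 windows of members raised by IL-6 in WT cells held the letters of GAS or of the ISRE core within this window. Slc48a1, also raised by IL-6, and Slc35e2, raised by IL-27 in WT cells, had no window. Among members raised by IL-27 in STAT3-deficient cells, Slc46a3 held the GAS letters TTCAGCGAA at position -238. Slc25a22 held the ISRE core GAAAGAGAAA at -79. Among members lowered by IL-6, Slc7a1 held TTCAAAGAA with its first base at position -146 from the start. Such matches describe letters, and binding was not measured.

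Some facts of the whole series bear on the values. In medium, the log2 change of Stat3 itself from WT to STAT3-deficient cells was -1.11 ± 0.12 (SE, 3 arrays a group; limma adjusted p = 1.74e-05), and Stat3 still rose in STAT3-deficient cells with IL-6 by 1.00 ± 0.12 and with IL-27 by 1.77 ± 0.12; whether its probe set lies in the deleted part is not known here. The median deposited signal of an array was 104.4 to 126.8 in WT and 131.5 to 190.3 in STAT3-deficient cells. On the normalised scale, the T cell markers that passed the filter on dim probe sets (9 of 10) summed to 69900 to 98700 units in WT and 71500 to 87900 in STAT3-deficient arrays. B cell markers (8 of 11) summed to 1090 to 1420 and 2260 to 4140, and myeloid markers (10 of 12) to 769 to 1250 and 2810 to 7930. The deposited signal of S100a8 was 11.4 to 82.5 units in WT and 1156.2 to 3244.2 in STAT3-deficient arrays. Other myeloid markers overlapped, such as Cd68 (88.2 to 174.1 and 101.6 to 146.7) and Fcer1g (53.2 to 202.2 and 105.9 to 191.1). In medium, 4 of the 10 myeloid markers were called higher in STAT3-deficient cells and 1 lower. Of the 8 B cell markers 6 were called higher and none lower, beside 13.7% of all genes higher and 12.9% lower. CD8 T and NK cell markers (4 of 7) summed to 1950 to 3340 and 1730 to 2220, and of 7 red cell markers only Alas2 passed the filter, with a deposited signal of 6.2 to 58 in WT and 9.9 to 350 in STAT3-deficient arrays. In RNA of sorted populations, fewer cells of a type and less RNA per cell cannot be told apart. Values below are quantile normalised log2(signal + 32), changes are differences of group means of 3 arrays with their standard error (SE) from limma, and a call is a Benjamini-Hochberg adjusted p under 0.05 over 11971 genes. All 138 members passed the filter on dim probe sets through the probe set that the rule used.

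IL-6 in WT cells raised the zinc carriers Slc30a4 and Slc39a1, the heme carrier Slc48a1, the lysosomal Slc49a4 and the mitochondrial Slc25a30, and the members it lowered included 3 amino acid carriers, the glucose carrier Slc2a3, the phosphate carrier Slc20a1 and the potassium chloride cotransporter Slc12a7. It raised 5 members and lowered 10 of 138, that is 10.9% of them, beside 8.33% of all genes tested (3.67% higher and 4.66% lower). The median change was -0.04 over the members and -0.02 over all genes, and 30 members had an unadjusted p under 0.05. The 2 groups of arrays did not overlap for 13 members with IL-6 higher and 32 with IL-6 lower, beside 10.6% and 15% of all genes. In the same arrays, the T cell marker sum was 94300 to 98700 units in medium and 69900 to 71600 with IL-6, and the CD8 T and NK cell sum was 2880 to 3340 and 1950 to 2010. Of 9 measured T cell markers 5 were called lower, with a median change of -0.65. Only 1 of 4 measured CD8 T and NK cell markers was called lower, with a median change of 0.02. The part of these markers in the changes of the members was not tested.

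**Figure D1:**
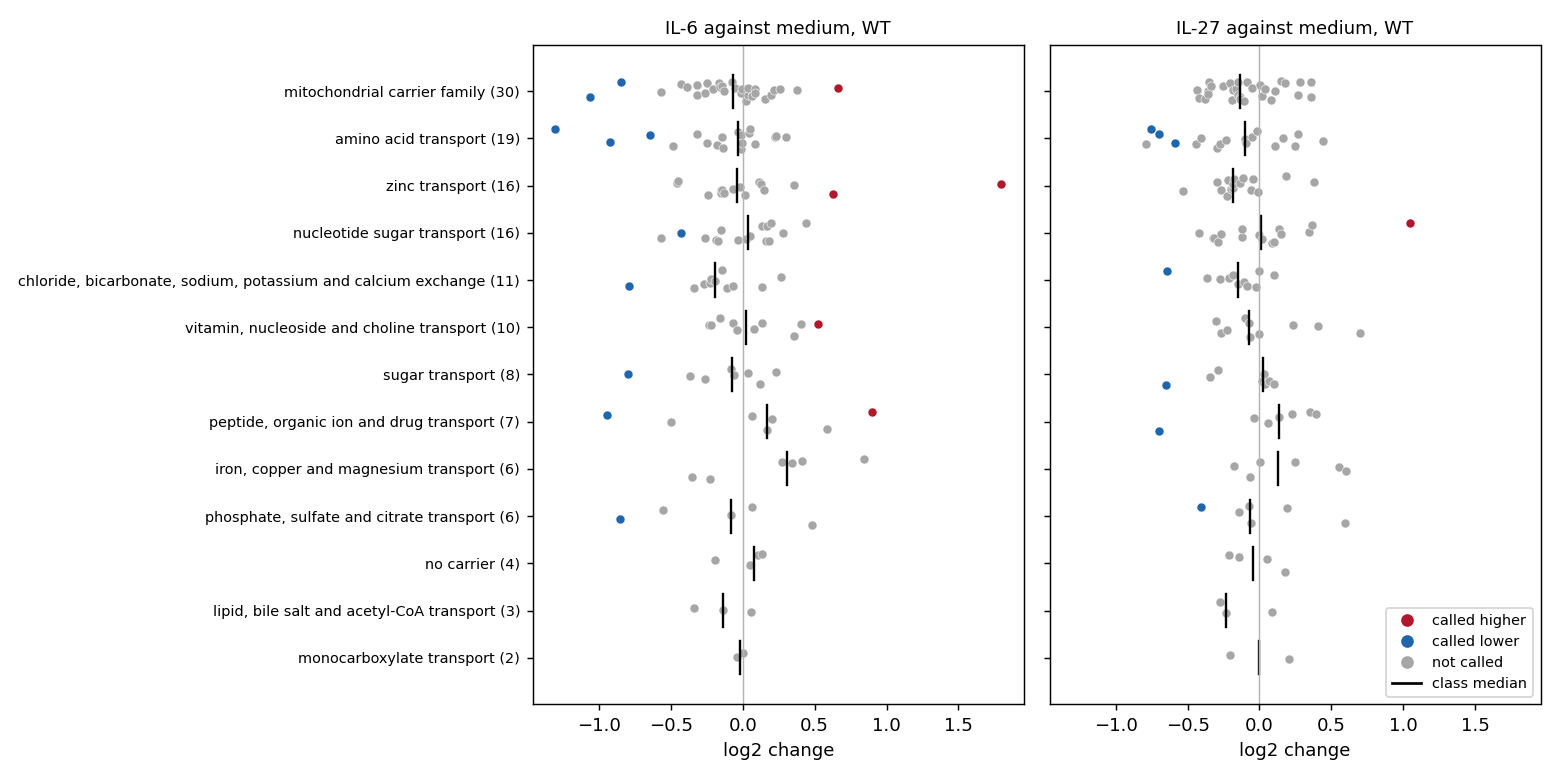
Log2 change against medium in WT cells for each of the 138 members (1 point each, n = 3 arrays a group), with IL-6 on the left and IL-27 on the right. Members are grouped by class of cargo, assigned by gene family, with the number of members in parentheses. Points called higher are red and points called lower are blue; with IL-6 the zinc class spans -0.45 to 1.80 and the amino acid class -1.30 to 0.30.

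The largest change of any member was in Slc30a4, whose product ZnT4 moves zinc from the cytosol into vesicles. Its arrays read 9.71, 9.76 and 9.56 in WT medium, 11.39, 11.47 and 11.56 with IL-6 and 9.43, 9.44 and 9.55 with IL-27. In STAT3-deficient cells they read 9.15, 9.65 and 9.80 in medium, 9.25, 9.09 and 9.56 with IL-6 and 9.17, 9.32 and 9.42 with IL-27. All 3 WT IL-6 arrays thus stood above the other 15, which lay between 9.09 and 9.80. IL-6 raised Slc30a4 3.48-fold in WT cells (log2 change 1.80 ± 0.15; limma adjusted p = 1.24e-07), the change with IL-27 was -0.20 ± 0.15 (adjusted p = 0.599), and IL-27 lay 4-fold below IL-6 (-2.0 ± 0.15; adjusted p = 7.31e-08). In STAT3-deficient cells IL-6 gave -0.24 ± 0.15 (adjusted p = 0.793), and the IL-6 effect differed between genotypes by -2.03 ± 0.21 (limma interaction, adjusted p = 1.06e-05). The gene has a single probe set of its own.

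Of 16 zinc carriers, IL-6 raised 2 and lowered none, and their median change was -0.04. The other called zinc carrier was Slc39a1, whose product ZIP1 brings zinc into the cytosol, at 0.63 ± 0.13 or 1.54-fold (adjusted p = 0.00233). Its arrays read 9.97, 10.15 and 10.07 in medium and 10.50, 10.70 and 10.87 with IL-6, so that the groups did not overlap. In STAT3-deficient cells its change was -0.03 ± 0.13, and the difference in effect between genotypes, -0.66 ± 0.18, had an adjusted p of 0.0522. The zinc exporter of the plasma membrane, Slc30a1, gave -0.45 ± 0.26 (adjusted p = 0.418), and Slc39a10, a zinc importer, 0.35 ± 0.20 (adjusted p = 0.403).

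Slc49a4 rose with IL-6 in WT cells by 0.90 ± 0.14, or 1.86-fold (adjusted p = 0.000157). Its arrays read 9.46, 9.39 and 9.38 in medium, 10.27, 10.24 and 10.40 with IL-6 and 9.76, 9.62 and 9.52 with IL-27. With IL-27 its change was 0.23 ± 0.14 (adjusted p = 0.484), and IL-27 lay below IL-6 by -0.67 ± 0.14 (adjusted p = 0.00631), a call lost under median centring (adjusted p = 0.061). In STAT3-deficient cells the gene started lower, at 8.91, 8.87 and 8.78 in medium, and gave 0.40 ± 0.14 with IL-6 (adjusted p = 0.274) and 0.43 ± 0.14 with IL-27 (adjusted p = 0.0936). The IL-6 effect did not pass the test of a difference between genotypes (-0.49 ± 0.19; adjusted p = 0.253). Slc48a1, whose product carries heme out of endosomes and lysosomes, rose 1.44-fold (0.52 ± 0.12; adjusted p = 0.00879; 0.0751 without WT IL-6 replicate 3).

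Of the 30 Slc25 mitochondrial carriers, IL-6 raised 1 and lowered 2 in WT cells. Slc25a30, a carrier of the inner mitochondrial membrane, rose by 0.66 ± 0.12 or 1.58-fold (adjusted p = 0.00104), with arrays at 9.67, 9.47 and 9.60 in medium and 10.12, 10.33 and 10.27 with IL-6. In STAT3-deficient cells they read 9.88, 10.10 and 9.78 in medium and 9.70, 9.95 and 10.03 with IL-6, which overlap. Its other probe sets that passed the filter gave 0.52, 0.54 and 0.65 with IL-6 in WT cells. Slc25a40, a carrier of glutathione into mitochondria, was lower by -1.06 ± 0.27 (adjusted p = 0.0165), and Slc25a35 by -0.85 ± 0.21 (adjusted p = 0.0121). The arrays of Slc25a40 ranged from 10.23 to 11.09 in medium and from 9.37 to 9.81 with IL-6. Its call was lost without any one of WT medium replicate 2 and WT IL-6 replicates 1 and 2 (adjusted p up to 0.119), and that of Slc25a35 without WT medium replicate 1, WT IL-6 replicate 1 or WT IL-6 replicate 3 (up to 0.0808). The ADP/ATP carriers Slc25a4 and Slc25a5 gave -0.32 ± 0.11 (adjusted p = 0.0961) and -0.17 ± 0.11 (adjusted p = 0.506).

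Among the 19 members of the amino acid class, IL-6 lowered 3 and raised none in WT cells, with a median change of -0.03. Slc43a2, the neutral amino acid carrier LAT4, fell 2.47-fold (-1.30 ± 0.27; adjusted p = 0.00284). It read 9.71, 9.49 and 9.30 in medium and 8.79, 7.45 and 8.36 with IL-6, a spread among IL-6 arrays wider than in medium but with no overlap. The taurine carrier Slc6a6 fell 1.89-fold (-0.92 ± 0.15; adjusted p = 0.000231). The cationic amino acid carrier Slc7a1 fell 1.56-fold (-0.65 ± 0.16; adjusted p = 0.0149), a call lost without WT medium replicate 2, WT IL-6 replicate 1 or WT IL-6 replicate 3 (adjusted p up to 0.0709) and with the mean of all its probe sets (0.0904). The carriers best known from T cell activation did not pass the test: Slc7a5 gave 0.22 ± 0.48, its partner Slc3a2 -0.01 ± 0.13, the glutamine carriers Slc1a5 -0.01 ± 0.20 and Slc38a2 0.04 ± 0.14. The STAT3-deficient arrays of Slc7a5 spread from 6.93 to 9.36, and in each of the 3 STAT3-deficient treatments the array numbered 1 was lowest and the array numbered 3 highest.

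The glucose carrier Slc2a3 (GLUT3) was the 1 of 8 sugar carriers called with IL-6, and with IL-27, in WT cells. Its arrays read 10.30, 10.25 and 10.70 in WT medium, 9.85, 9.45 and 9.54 with IL-6 and 9.53, 9.80 and 9.98 with IL-27. It fell 1.74-fold with IL-6 (-0.80 ± 0.17; adjusted p = 0.00419) and 1.57-fold with IL-27 (-0.65 ± 0.17; adjusted p = 0.0357). The IL-27 call was lost without WT medium replicate 1 or 3 or WT IL-27 replicate 1 or 2 (adjusted p up to 0.16), under median centring and with no variance trend. Slc2a1 (GLUT1) gave 0.23 ± 0.14 with IL-6 (adjusted p = 0.44) and 0.02 ± 0.14 with IL-27. The lactate and pyruvate carrier Slc16a1 gave -0.04 ± 0.28 with IL-6.

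Among ion carriers, the phosphate carrier Slc20a1 fell 1.81-fold with IL-6 (-0.86 ± 0.10; adjusted p = 3.86e-06) and the potassium chloride cotransporter Slc12a7 fell 1.73-fold (-0.79 ± 0.10; adjusted p = 3.12e-05). Slc20a1 read 12.32, 12.44 and 12.39 in WT medium, 11.46, 11.62 and 11.50 with IL-6 and 11.82, 12.01 and 12.09 with IL-27, 3 groups that did not overlap. Slc12a7 read 11.97, 11.96 and 11.69 in WT medium, 11.08, 11.02 and 11.16 with IL-6 and 11.01, 11.24 and 11.45 with IL-27, where the arrays of both cytokines overlapped. Slc35b3, which carries the sulfate donor PAPS into the Golgi, fell 1.35-fold (-0.43 ± 0.10; adjusted p = 0.00518), a call lost under median centring (adjusted p = 0.187). The magnesium carrier Slc41a1 had the largest change that was not called, at 0.85, with an adjusted p of 0.126.

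IL-27 in WT cells raised 1 member and lowered 7, 5.8% of the 138 beside 4.71% of all genes tested (2.71% higher and 2% lower). The median change was -0.10 over members and -0.04 over all genes, and 24 members had an unadjusted p under 0.05. The T cell marker sum was 94300 to 98700 units in medium and 77700 to 82500 with IL-27, and the CD8 T and NK cell sum was 2880 to 3340 and 2080 to 2440. Of 9 measured T cell markers 3 were called lower, with a median change of -0.34. Only 1 of 4 measured CD8 T and NK cell markers was called lower, with a median change of -0.04. The part of these markers in the changes of the members was not tested. The raised gene was Slc35e2, a little-studied member of the nucleotide sugar carrier family. It read 11.17, 11.13 and 11.21 in WT medium, 11.02, 10.87 and 10.83 with IL-6 and 12.16, 12.25 and 12.22 with IL-27. It rose 2.06-fold with IL-27 (1.04 ± 0.12; adjusted p = 7.35e-06), gave -0.26 ± 0.12 with IL-6 (adjusted p = 0.24), and stood 2.47-fold higher with IL-27 than with IL-6 (1.31 ± 0.12; adjusted p = 8.01e-07).

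The members lowered by IL-27 in WT cells included 3 of the 19 in the amino acid class. Slc6a6 fell 1.69-fold (-0.75 ± 0.15; adjusted p = 0.00288), Slc7a6, the y+LAT2 exchanger, 1.62-fold (-0.70 ± 0.17; adjusted p = 0.0198), and the glutamine carrier Slc38a1 1.5-fold (-0.59 ± 0.16; adjusted p = 0.0345). The call of Slc7a6 was lost without WT medium replicate 2 or 3 or WT IL-27 replicate 1 or 3 (adjusted p up to 0.114) and with the mean of all probe sets (0.065), and that of Slc38a1 without any WT medium array or WT IL-27 replicate 1 or 2 (up to 0.144) and with the mean of all probe sets. A further probe set of Slc38a1 gave 0.00. The carnitine carrier Slc22a5 fell 1.62-fold (-0.70 ± 0.17; adjusted p = 0.0201), lost without WT medium replicate 1 or 2 or WT IL-27 replicate 3 (up to 0.138) and under 3 other settings (up to 0.469). Slc12a7 fell 1.56-fold (-0.64 ± 0.10; adjusted p = 0.000537) and Slc20a1 1.33-fold (-0.41 ± 0.10; adjusted p = 0.0142; up to 0.0884 without WT medium replicate 2 or WT IL-27 replicate 1, and 0.146 with median centring). IL-6 and IL-27 were compared with the same medium arrays, so their falls in Slc6a6, Slc2a3, Slc12a7 and Slc20a1 are not independent.

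Set directly against each other in WT cells, the cytokines differed in 6 members, 3 higher with IL-27 and 3 lower (4.35% of members beside 3.13% of all genes). Besides Slc30a4, Slc49a4 and Slc35e2, IL-27 lay below IL-6 in Slc25a30 (-0.62 ± 0.12; adjusted p = 0.0044). It lay above IL-6 in the organic anion carrier Slco3a1 (1.29 ± 0.26; adjusted p = 0.00594) and in Slc20a1 (0.45 ± 0.10; adjusted p = 0.00844). The call of Slco3a1 was lost without WT IL-6 replicate 3 (adjusted p = 0.051) or WT IL-27 replicate 1 (0.0501), and that of Slc20a1 without WT IL-6 replicate 1 or WT IL-27 replicate 3 (up to 0.0646), under median centring and with the mean of all its probe sets (0.855).

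**Figure D2:**
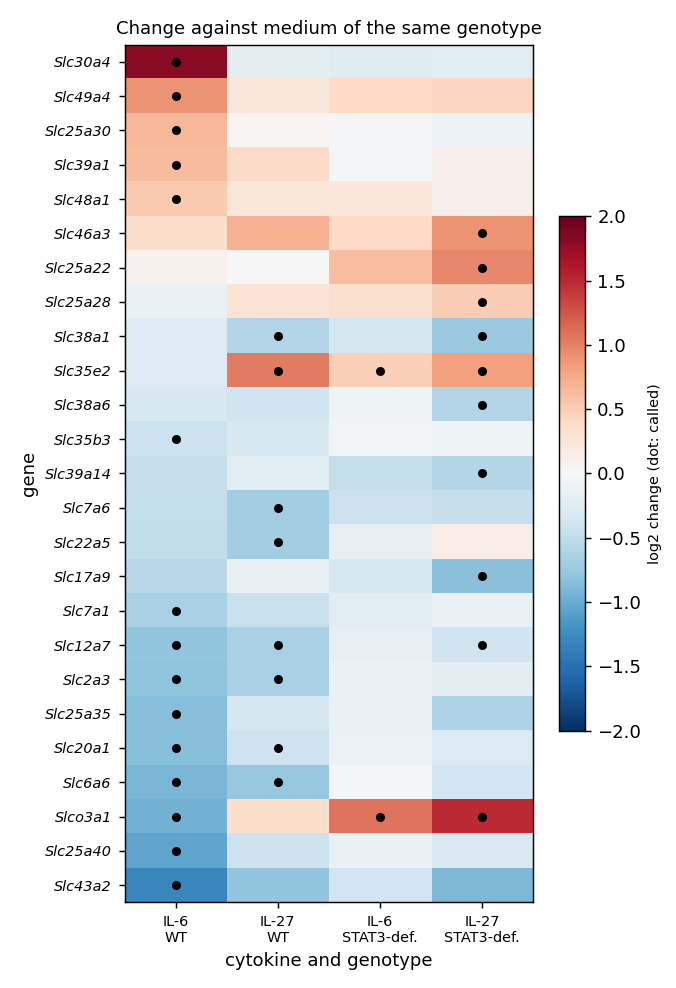
Log2 change against medium of the same genotype (colour, blue lower and red higher) for the members called in at least 1 of 4 comparisons, ordered by the IL-6 change in WT cells; a black dot marks a call and each group holds 3 arrays. Slc30a4 at the top has its dot only under IL-6 in WT, at 1.80. Slc35e2 has dots under IL-27 in both genotypes, at 1.04 and 0.81, and under IL-6 in STAT3-deficient cells, at 0.48.

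In STAT3-deficient cells IL-6 raised 2 members and lowered none, 1.45% beside 1.84% of all genes tested (1.68% higher and 0.159% lower), with 16 members at an unadjusted p under 0.05. Slco3a1 rose 2.12-fold (1.08 ± 0.26; adjusted p = 0.0359) and Slc35e2 1.4-fold (0.48 ± 0.12; adjusted p = 0.0391). Neither call held under each alternative: Slco3a1 was lost without STAT3-deficient medium replicate 1 or 2 or STAT3-deficient IL-6 replicate 1 or 3 (adjusted p up to 0.244), and Slc35e2 without STAT3-deficient medium replicate 1 or 3 or STAT3-deficient IL-6 replicate 2 or 3.

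The difference of the IL-6 effect between genotypes was tested as an interaction and passed for 7 members, 5.07% beside 3.09% of all genes (1.84% higher and 1.25% lower); 19 members had an unadjusted p under 0.05. These 7 fell into 3 patterns: a rise called in WT cells and no call in STAT3-deficient cells (Slc30a4, Slc25a30), a fall called in WT cells and no call in STAT3-deficient cells (Slc20a1, Slc12a7, Slc6a6), and a rise called in STAT3-deficient cells with an estimate below 0 in WT cells (Slco3a1, Slc35e2).

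**Figure D3:**
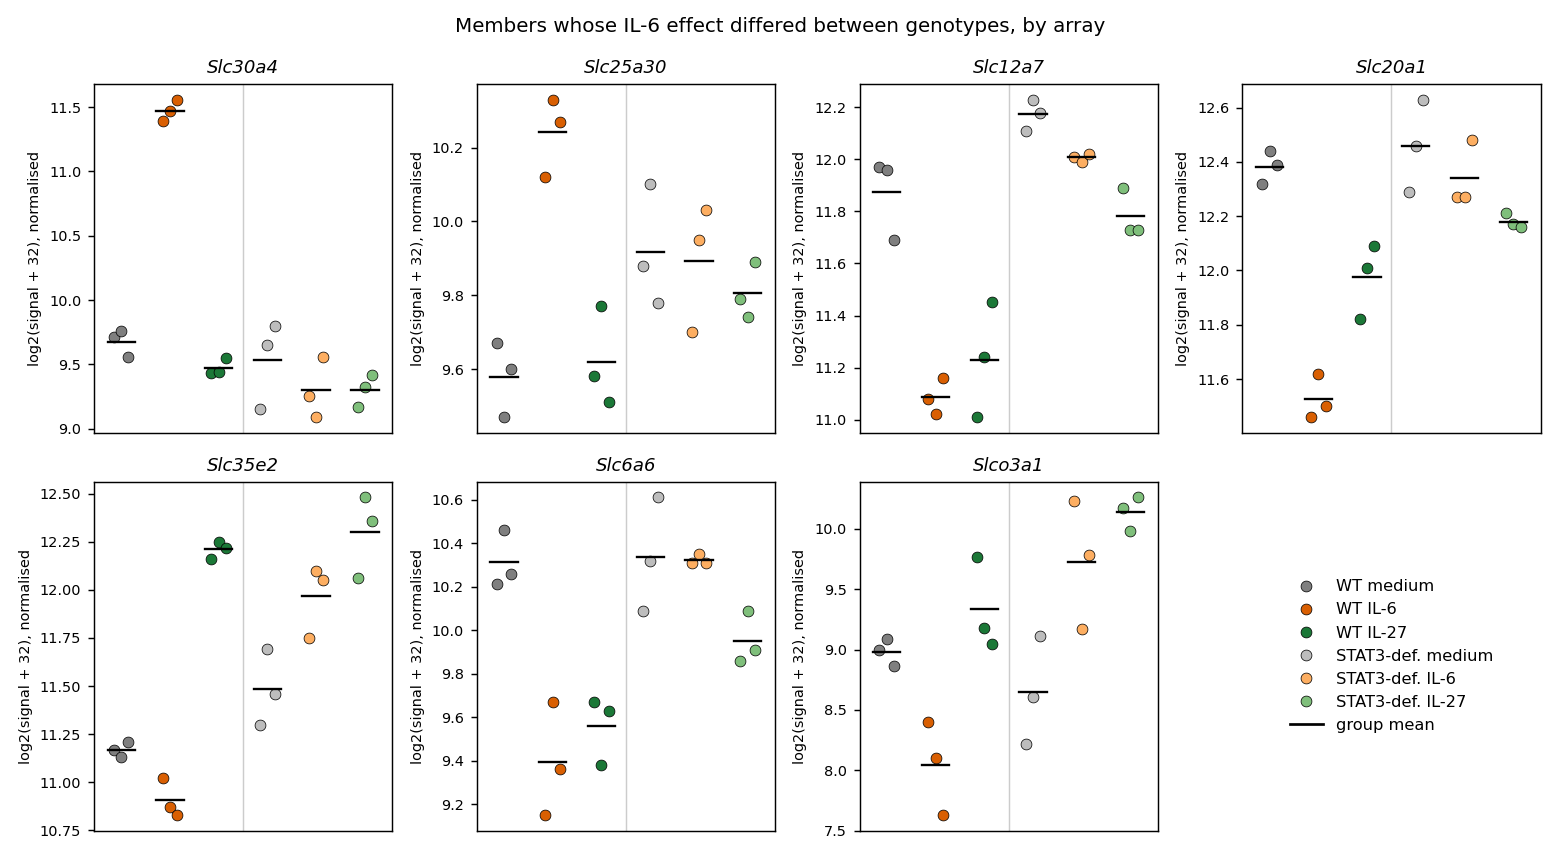
Quantile normalised log2(signal + 32) of the 7 members whose IL-6 effect differed between genotypes, 1 point for each of the 18 arrays, with a line at the mean of each group of 3. WT IL-6 arrays of Slc30a4 lie at 11.39 to 11.56 above all others, and those of Slco3a1 lie at 7.63 to 8.40 while STAT3-deficient IL-6 arrays lie at 9.17 to 10.23.

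Slco3a1 changed in opposite directions in the genotypes. Its arrays read 9.0, 9.09 and 8.86 in WT medium and 8.40, 8.10 and 7.63 with IL-6, and 9.77, 9.18 and 9.05 with IL-27. In STAT3-deficient cells they read 8.22, 8.61 and 9.11 in medium, 10.23, 9.17 and 9.78 with IL-6 and 10.17, 9.98 and 10.26 with IL-27. IL-6 thus lowered the gene 1.92-fold in WT cells (-0.94 ± 0.26; adjusted p = 0.0294) and raised it in STAT3-deficient cells, and the effects differed by 2.02 ± 0.37 (adjusted p = 0.00312; up to 0.0131 over the alternatives). The fall in WT cells was lost without any of the 3 WT medium arrays or WT IL-6 replicate 2 or 3 (adjusted p up to 0.174), though the sign held. Its 2 further probe sets gave differences of 2.35 and 1.64.

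**Figure D4:**
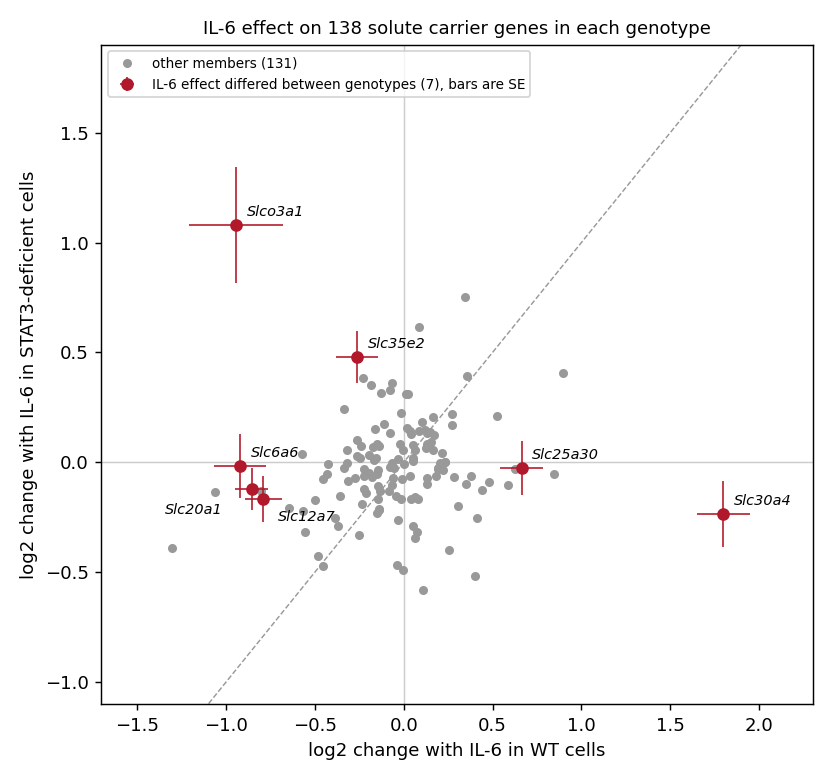
Log2 change with IL-6 in WT cells (horizontal axis) against that in STAT3-deficient cells (vertical axis) for the 138 members, each from 3 arrays a group; red points with SE bars are the 7 whose effects differed, and the dashed line marks equal change. Slc30a4 lies at 1.80 and -0.24, and Slco3a1 at -0.94 and 1.08.

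For Slc35e2 the effects differed by 0.74 ± 0.17 (adjusted p = 0.015), with arrays at 11.30, 11.69 and 11.46 in STAT3-deficient medium and 11.75, 12.10 and 12.05 with IL-6. For Slc20a1 they differed by 0.73 ± 0.13 (adjusted p = 0.00312); its STAT3-deficient arrays read 12.29, 12.46 and 12.63 in medium and 12.27, 12.27 and 12.48 with IL-6, which overlap. With the mean of all probe sets of Slc20a1 the difference was 0.41 (adjusted p = 0.269), and a dim probe set with a mean log2(signal + 32) of 7.08 gave -0.02. For Slc6a6, at 10.21, 10.46 and 10.26 in WT medium, 9.15, 9.67 and 9.36 with IL-6, 10.09, 10.32 and 10.61 in STAT3-deficient medium and 10.31, 10.35 and 10.31 with IL-6, they differed by 0.90 ± 0.21 (adjusted p = 0.0169). This call was lost without WT medium replicate 2 or WT IL-6 replicate 1 (adjusted p up to 0.058).

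Slc12a7 read 12.11, 12.23 and 12.18 in STAT3-deficient medium and 12.01, 11.99 and 12.02 with IL-6, groups that did not overlap although the change of -0.17 ± 0.10 was not called (adjusted p = 0.781). Its IL-6 effects differed by 0.62 ± 0.15 (adjusted p = 0.0231), which was lost without WT medium replicate 1 or 2, WT IL-6 replicate 1 or 2, STAT3-deficient medium replicate 1 or STAT3-deficient IL-6 replicate 3 (adjusted p up to 0.0742). For Slc25a30 they differed by -0.69 ± 0.17 (adjusted p = 0.0318), lost without WT medium replicate 2 or 3, WT IL-6 replicate 2 or 3, STAT3-deficient medium replicate 1 or 2 or STAT3-deficient IL-6 replicate 1 (up to 0.102) and under median centring (0.332). Slc39a1, Slc49a4 and Slc48a1, the other 3 of the 5 members raised by IL-6 in WT cells, did not pass this test, which does not show that their effects were alike in both genotypes.

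IL-27 in STAT3-deficient cells raised 5 members and lowered 5, 7.25% beside 4.98% of all genes tested (3.27% higher and 1.7% lower), and 29 members had an unadjusted p under 0.05. In the same arrays the T cell marker sum was 80900 to 87900 units in medium and 71700 to 77600 with IL-27. Of 9 measured T cell markers 3 were called lower and 1 higher, with a median change of -0.3. The part of these markers in the changes of the members was not tested. Slco3a1 rose 2.81-fold (1.49 ± 0.26; adjusted p = 0.00116) and Slc35e2 1.76-fold (0.81 ± 0.12; adjusted p = 0.000136), and both calls held under every alternative run. The mitochondrial carriers of glutamate and of iron, Slc25a22 and Slc25a28, rose by 0.96 ± 0.22 (adjusted p = 0.0123) and 0.51 ± 0.13 (adjusted p = 0.0284), and the lysosomal carrier Slc46a3 by 0.90 ± 0.26 (adjusted p = 0.0477). The call of Slc25a22 was lost without STAT3-deficient medium replicate 3, which read 7.86 beside 8.48 and 8.90, and with only the arrays compared (adjusted p = 0.0914), and those of Slc25a28 and Slc46a3 were each lost without any of the 3 STAT3-deficient medium arrays or STAT3-deficient IL-27 replicate 1 or 2. The latter 2 calls were also lost with the deposited scaling, under median centring and with only the arrays compared. That of Slc46a3 was lost with no filter and with no variance trend as well. Over all alternatives the adjusted p reached 0.158 for Slc25a28 and 0.185 for Slc46a3.

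The falls with IL-27 in STAT3-deficient cells were in Slc17a9, the vesicular nucleotide carrier (-0.83 ± 0.17; adjusted p = 0.00456), in the amino acid carriers Slc38a1 (-0.74 ± 0.16; adjusted p = 0.00622) and Slc38a6 (-0.59 ± 0.14; adjusted p = 0.0117), in the zinc importer Slc39a14 (-0.58 ± 0.16; adjusted p = 0.0416) and in Slc12a7 (-0.39 ± 0.10; adjusted p = 0.0342). Slc38a1 lost its call under median centring (adjusted p = 0.155) and with the mean of all its probe sets (0.168), where its other probe set gave -0.10, and Slc17a9 lost its call with only the arrays compared (0.0684). Slc38a6 lost its call without STAT3-deficient IL-27 replicate 2, under median centring and with only the arrays compared (up to 0.178), and Slc39a14 and Slc12a7 without each of 4 and 5 arrays, STAT3-deficient medium replicates 2 and 3 and IL-27 replicates 2 and 3 for both, and medium replicate 1 also for Slc12a7. Both were also lost under median centring, with the mean of all probe sets and with only the arrays compared. Slc39a14 was lost with no filter as well (up to 0.635), and Slc12a7 with the deposited scaling and no variance trend (up to 0.874). The change of Slc12a7 ranged from -0.45 to -0.08 over the alternatives. Further probe sets of Slc39a14 that passed the filter gave 0.19 and -0.20. No member had an IL-27 effect that differed between genotypes by the limma interaction, where 0.0167% of all genes were called (0.00835% in each direction) and 10 members had an unadjusted p under 0.05; the count was 0 under each alternative. Slco3a1 gave 1.14 ± 0.37 (adjusted p = 0.59) and Slc22a5 0.84 ± 0.24 (adjusted p = 0.523). Nor did any member differ between IL-27 and IL-6 in STAT3-deficient cells (limma; 0.393% of all genes called, 0.384% higher and 0.00835% lower; 16 members with an unadjusted p under 0.05; 1 member called with array weights).

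In medium, STAT3-deficient cells differed from WT cells in 25 members, 18 higher and 7 lower, 18.1% beside 26.7% of all genes tested (13.7% higher and 12.9% lower). The direction of these counts depended on the scaling: 27 higher and 12 lower with the deposited scaling, and 5 higher and 70 lower with median centring, where the median over all genes was 0.136 and -0.404 in place of 0.03. The 6 calls that held under every alternative were those of Slc29a4, Slc20a2, Slc18a1 and Slc13a5, higher, and Slc25a20 and Slc29a1, lower. The members, chosen by a mean over both genotypes, stayed the same in all alternatives. No further probe set of Slc29a4, Slc18a1 or Slc13a5 passed the filter, so averaging probe sets left the values of these genes unchanged. The B cell and myeloid marker sums given above were higher in every STAT3-deficient array than in every WT array, in medium at 2530 to 3560 and 2810 to 7930 units beside 1100 to 1160 and 818 to 1100; their part in these differences was not tested.

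**Figure D5:**
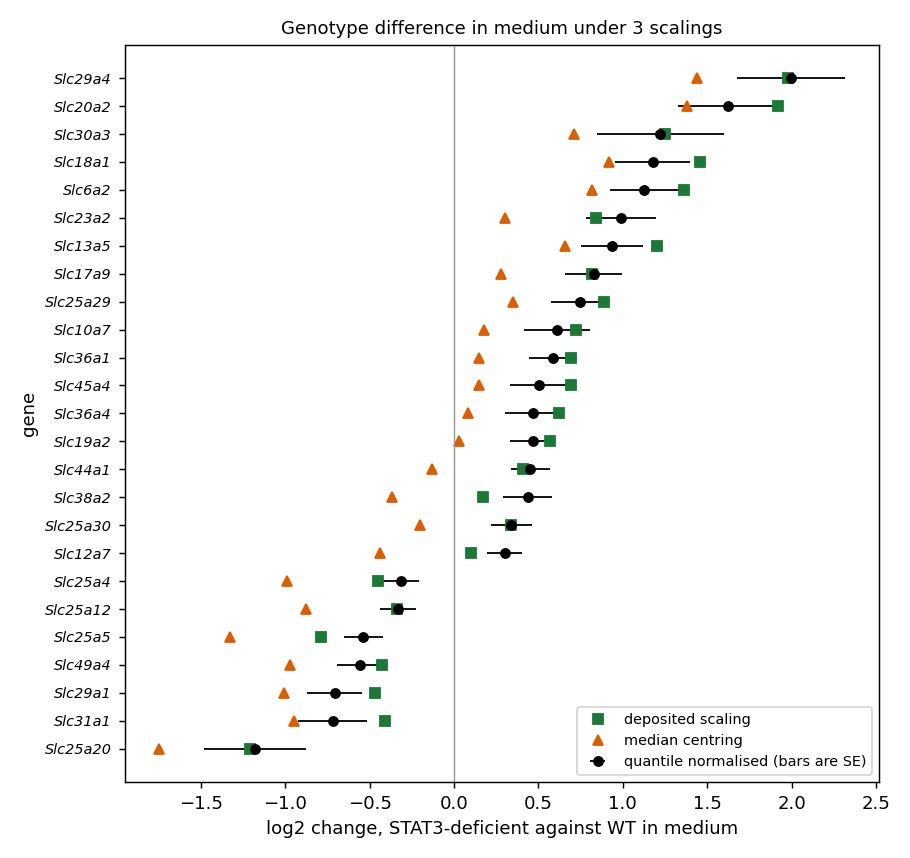
Log2 difference between STAT3-deficient and WT cells in medium (3 arrays each) for the 25 called members after quantile normalisation (circles, with SE), with the deposited scaling (squares) and with median centring (triangles). Triangles lie to the left of the circles, and that of Slc12a7 lies at -0.44 beside its circle at 0.30.

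The highest was Slc29a4, a monoamine carrier of the nucleoside carrier family, at 8.52, 8.96 and 9.29 in WT and 11.35, 10.95 and 10.46 in STAT3-deficient cells (2.00 ± 0.32, or 3.99-fold; adjusted p = 0.000394). The phosphate carrier Slc20a2 read 7.86, 6.94 and 7.31 in WT and 9.29, 8.91 and 8.78 in STAT3-deficient cells (1.62 ± 0.30; adjusted p = 0.000931). A dimmer probe set of the same gene gave -0.18 for Slc20a2 and 0.06 for Slc29a4, and these differences rest on 1 probe set each. The zinc carrier Slc30a3, at 8.63, 9.07 and 9.16 in WT and 10.60, 9.87 and 10.06 in STAT3-deficient cells, was higher by 1.22 ± 0.37 (adjusted p = 0.0232), lost without WT medium replicate 1 or STAT3-deficient medium replicate 1 (adjusted p up to 0.0987) and under median centring (0.0549).

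The vesicular monoamine carrier Slc18a1 read 7.91, 8.22 and 7.30 in WT and 9.16, 9.03 and 8.77 in STAT3-deficient cells (1.18 ± 0.22; adjusted p = 0.00126). Its WT arrays at 7.91 and 7.30 lay below the threshold of 8, so the arrays of other groups helped it to meet the rule. The noradrenaline carrier Slc6a2 read 7.96, 8.28 and 7.95 against 9.50, 9.25 and 8.83 (1.13 ± 0.20; adjusted p = 0.000911; 0.0635 with the mean of all its probe sets). Slc6a2 is best known from neurons. Slc18a1 and Slc6a2 each had at least 1 other probe set with a change of the opposite sign. The citrate carrier Slc13a5 was higher by 0.94 ± 0.18 (adjusted p = 0.00148), while a dim probe set of it that did not pass the filter gave -0.42. Slc17a9 and the vitamin C carrier Slc23a2 were higher by 0.83 ± 0.17 (adjusted p = 0.00216) and 0.99 ± 0.21 (adjusted p = 0.00274), both lost under median centring.

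Among mitochondrial carriers, 2 were higher and 4 lower in STAT3-deficient cells. The carnitine-acylcarnitine carrier Slc25a20, which brings fatty acids into mitochondria, read 11.14, 11.02 and 10.90 in WT and 9.70, 9.55 and 10.28 in STAT3-deficient cells (-1.18 ± 0.30, or 2.26-fold lower; adjusted p = 0.00922), and its other probe set gave -0.57. The ADP/ATP carriers Slc25a5 and Slc25a4 were lower by -0.54 ± 0.11 (adjusted p = 0.0026) and -0.32 ± 0.11 (adjusted p = 0.0433). Their 7 and 2 other probe sets that passed the filter ranged in sign, from -0.70 to 0.77 for Slc25a5 and from -0.45 to 0.02 for Slc25a4, and near-identical copies of these genes may share signal. The call of Slc25a5 was lost with the mean of all its probe sets (adjusted p = 0.75). Slc25a4 was lost without WT medium replicate 1 or 2 or STAT3-deficient medium replicate 1 or 2 (adjusted p up to 0.174 over all alternatives). The nucleoside carrier Slc29a1 was lower by -0.71 ± 0.16 (adjusted p = 0.00456), and the copper importer Slc31a1 by -0.72 ± 0.20 (adjusted p = 0.0152), which was lost without WT medium replicate 2 or STAT3-deficient medium replicate 1 and with the deposited scaling (adjusted p up to 0.0917). Slc49a4 was lower by -0.56 ± 0.14 (adjusted p = 0.00731).

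Cargo classes followed gene families, so some members carry another cargo than their class names. Of 19 members of the amino acid class 4 were higher and none lower in STAT3-deficient cells. Of 6 members of the phosphate, sulfate and citrate class 3 were higher and none lower. The medians were 0.18 and 0.62 beside 0.03 over all genes, with 13.7% of all genes called higher and 12.9% lower. The members called higher include the noradrenaline carrier Slc6a2 in the amino acid class and the vesicular nucleotide carrier Slc17a9 in the phosphate class. Under median centring only 5 of the 138 members were called higher. Besides Slc6a2, the members of the amino acid class called higher were the lysosomal Slc36a1 (0.59 ± 0.14, adjusted p = 0.00648), Slc36a4 (0.47 ± 0.17, adjusted p = 0.0444) and the glutamine carrier Slc38a2 (0.44 ± 0.14, adjusted p = 0.032). Under median centring, Slc36a1 stood at 0.15, Slc36a4 at 0.08 and Slc38a2 at -0.37. Over 17 alternatives the call of Slc36a1 was lost in 1, that of Slc36a4 in 9 and that of Slc38a2 in 8. For Slc36a4 and Slc38a2 these included the omission of any 1 of 4 arrays. Further probe sets of Slc38a2 gave 0.08 and -0.03. Of 10 members of the vitamin, nucleoside and choline class 4 were higher and 1 lower, with the monoamine carrier Slc29a4 among the higher. The thiamine carrier Slc19a2 (0.47 ± 0.13, adjusted p = 0.0167) and the choline carrier Slc44a1 (0.45 ± 0.11, adjusted p = 0.0087) were also higher, and median centring put them at 0.03 and -0.13. Further probe sets of Slc19a2 that passed the filter gave -0.40 and -0.14. Its call was lost under 6 of 17 alternatives, among them the omission of WT medium replicate 1 or STAT3-deficient medium replicate 1 or 2. Slc12a7 was higher by 0.30 ± 0.10 (adjusted p = 0.0417), turned to -0.44 by median centring and to -0.19 with the mean of all its probe sets. Its other probe set, which passed the filter, gave -0.69 ± 0.18. The call was lost under 13 of 17 alternatives, among them each omission of 1 of the 6 arrays.

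Related genes were counted by list, beside the 8.33% of all genes called with IL-6 in WT cells (3.67% higher, 4.66% lower). After this treatment, 2 of 25 measured genes of mTORC1 and amino acid sensing rose and 2 fell. Rragd, a GTPase that brings mTORC1 to the lysosome, rose by 3.02 ± 0.26 (adjusted p = 1.97e-07) and Sesn3, a sestrin that restrains mTORC1, by 0.85 ± 0.10 (adjusted p = 5.92e-06), while Sesn1 fell by -0.65 ± 0.11 (adjusted p = 0.000325). Among 14 glycolysis enzymes 1 rose, the lactate dehydrogenase Ldha (0.67 ± 0.10; adjusted p = 0.000136), and 1 fell, the phosphofructokinase Pfkp (-0.35 ± 0.11; adjusted p = 0.0496).

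Of 16 partners and regulators of carriers, IL-6 in WT cells raised 3 and lowered 1. The oxygen-sensing factor Hif1a rose by 1.25 ± 0.16 (adjusted p = 1.53e-05) and the kinase Sgk1, which acts on several carriers, by 1.24 ± 0.29 (adjusted p = 0.00878), and Txnip, which restrains glucose carriers, fell by -0.43 ± 0.12 (adjusted p = 0.0261). Of 10 ATP-driven ion pumps 2 fell, with the sodium pump subunit Atp1b1 at -0.70 ± 0.12 (adjusted p = 0.000373), and of 17 ABC transporters 1 fell, the sterol exporter Abcg1 at -0.77 ± 0.12 (adjusted p = 0.000188). Of 17 genes of the ATF4 amino acid response 1 rose and 1 fell. In that list Wars, the tryptophan tRNA synthetase and an interferon-induced gene, rose by 0.76 ± 0.18 with IL-6 (adjusted p = 0.00894) and, with IL-27, by 2.56 ± 0.18 in WT cells (adjusted p = 8.69e-09) and 3.17 ± 0.18 in STAT3-deficient cells (adjusted p = 2.78e-10).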

How the data were processed

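RNA of 18 samples was measured on Affymetrix Mouse 430 2.0 arrays. The deposited intensities were made by the authors with GCOS, per the labels, as 1 linear value for each probe set. The GCOS version, summarisation method and genome build are not given in the sources. On every array the mean of these values is 500 once 2% of them are trimmed from both ends. Probe sets were named by GEO's platform annotation: of 45101, 34945 had 1 symbol, 932 several, 9160 none and 64 were controls. Here log2(signal + 32) was quantile normalised with limma (version 3.58.1, R 4.3.3). A probe set was kept if above the median of its array on at least 3 arrays, and each gene was read from its brightest single-symbol probe set by mean deposited log2(signal + 32), which left 11971 genes. The constant of 32 understates changes of dim genes, and different probe sets of a gene can disagree. One model with 6 group means was fitted to all arrays (12 residual and 6.25 prior degrees of freedom, variance trend), with 9 comparisons, two-sided tests and Benjamini-Hochberg adjustment within each comparison.

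On simulated data for IL-6 against medium in WT cells, over 11971 genes, a true change was called in 31.3% of genes at 1.5-fold, in 67.2% at 2-fold and in 93.9% at 4-fold, and 3.03% of calls were false. The simulation changed 67, 67 and 66 genes at these sizes and drew normal noise independently for each gene. In the data 8.33% of genes were called and noise may be shared between genes, so these shares may not carry over. For arrays their number limits the precision. Named genes are called members (up to 10 per direction by size), a fixed set of well-known carriers, up to 4 members of each cargo class and up to 4 called genes of each related list; the GC box and the remarks on other probe sets, on the array order of Slc7a5 and on interaction patterns were chosen after values were seen. The members, lists and tests were chosen with earlier results of these data known. Promoter sequences are from RefSeq (GRCm38.p6). The alternatives tried changed the scaling (as deposited, or centred on the median), the constant, the filter, the choice of probe set, the variance trend, the array weights or the arrays fitted, added a block by sample number, or left out 1 array at a time.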

Additional observations from a re-analysis of the deposited data

Results flagged for a closer look

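The IL-6 effect differed between STAT3-deficient and WT cells, by the limma interaction with n = 3 arrays in each of 4 groups and a Benjamini-Hochberg adjusted p under 0.05 over all genes tested, in 7 members. In 2 the effect was lower without STAT3, by -2.03 ± 0.21 in Slc30a4 and by -0.69 ± 0.17 in Slc25a30 (log2, SE). In 5 it was higher without STAT3, by 2.02 ± 0.37 in Slco3a1, by 0.90 ± 0.21 in Slc6a6, by 0.74 ± 0.17 in Slc35e2, by 0.73 ± 0.13 in Slc20a1 and by 0.62 ± 0.15 in Slc12a7. The calls of Slc30a4, Slco3a1 and Slc35e2 held under every alternative run, with adjusted p up to 0.000152, 0.0131 and 0.0496. Slc30a4 separated all 3 WT IL-6 arrays from the other 15, and the IL-6 estimates of Slco3a1 had opposite signs in the genotypes in all 3 of its probe sets that passed the filter.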

How the results depend on the processing

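Over the 9 comparisons 73 calls were made in 46 members. Of these, 26 held under each alternative run, 47 were lost under at least 1, and 5 changed sign under at least 1. Leaving out 1 array at a time gave 11 to 18 members called for IL-6 against medium in WT cells (15 with all arrays; 11 without WT IL-6 replicate 3), 4 to 6 for IL-27 in WT (8; 4 without WT medium replicate 2 or WT IL-27 replicate 1 and 5 without WT medium replicate 1), 5 to 6 for IL-27 against IL-6 in WT (6), 0 to 1 for IL-6 in STAT3-deficient cells with any 1 of its 6 arrays left out (2), 5 to 11 for IL-27 in STAT3-deficient cells (10; 5 without STAT3-deficient medium replicate 3 or IL-27 replicate 2, and 6 without medium replicate 2), 4 to 8 for the IL-6 interaction (7; 4 without WT medium replicate 2) and 17 to 25 for genotype in medium (25); the IL-27 interaction and IL-27 against IL-6 in STAT3-deficient cells stayed at 0. The cause was not tested for any of the changes below. IL-6 in STAT3-deficient cells had 1 call with the deposited scaling and 0 with no filter, with no variance trend and with only the arrays compared. IL-27 in WT had 5 calls with median centring, 5 with the mean of all probe sets and 14 with array weights. IL-27 in STAT3-deficient cells had 4 calls with median centring (3 higher and 1 lower), 4 with only the arrays compared and 16 with array weights, and IL-27 against IL-6 there had 1 with array weights. Genotype in medium had 39 calls with the deposited scaling but 75 with median centring, and median centring left 5 higher and 1 lower in the IL-6 interaction. Median centring moved the median of all genes by 0.132 for IL-6 and 0.119 for IL-27 in STAT3-deficient cells, and by 0.205 and 0.248 for the IL-6 and IL-27 interactions. For genotype in medium, median centring reversed Slc12a7 to -0.44, Slc25a30 to -0.20, Slc38a2 to -0.37 and Slc44a1 to -0.13, and the mean of all probe sets reversed Slc12a7 to -0.19 and Slc19a2 to -0.03.

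With the replicate block, by sample number within genotype, 24 members were called for IL-6 and 13 for IL-27 in WT cells, and calls not made with the block included those of Slc49a4 (adjusted p = 0.0538), Slc25a5 (0.0574) and Slc30a3 (0.105) for genotype in medium. The labels do not explain the numbers, so they were not taken as pairs. Of 18 same-numbered pairs, 11 correlated above 0.1 (range -0.15 to 0.36). In WT cells the pairs numbered 1 gave 0.19 to 0.22, those numbered 2 -0.02 to 0.08 and those numbered 3 0.15 to 0.21. These values do not decide whether same-numbered arrays are pairs. In 79 pairings of a call with another probe set of its gene that passed the filter, where a probe set counts once for each call of its gene, 55 had the same sign as the call and 24 the opposite sign.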
